A study of Mus musculus with 6 samples.

Results

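The proteasome genes described here are the protein-coding genes of the expression table whose names begin with Psma, Psmb, Psmc, Psmd, Psme, Psmf or Psmg followed by a digit, with the inducible subunits Psmb8 and Psmb9 left out. The names alone chose them, and 48 of the 54532 listed genes matched. Of these, 46 had a mean of at least 1 FPKM (fragments scaled by gene length in kilobases and by sequencing depth) over the 6 libraries and were tested. The other two were Psma8, the testis form of an outer ring subunit, at 0 to 0.125 FPKM, and Psmb11, the thymus form of Psmb5, at 0 to 0.0290 FPKM. One match, Psmc3ip, is a factor of meiotic recombination and no proteasome gene, and it was told apart from the rest.

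The proteasome is the protease that degrades proteins tagged with ubiquitin. Its barrel-shaped core is closed at each end by a ring of alpha subunits and carries the cutting sites on inner rings of beta subunits, and a regulatory particle with a base of ATPases and a lid caps it, binds the tagged protein, removes the tag and threads the chain inside. Dedicated chaperones help to assemble core and base, interferon exchanges some catalytic subunits for inducible forms that favour antigen processing, and the transcription factor Nfe2l1 raises the subunit genes together when the protease is impaired.

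RNA was sequenced from Neuro2A (N2a) cells, a mouse neuroblastoma line whose labels give the strain as C57BL/6 and maintenance in a serum-containing growth medium. The study's general protocol moves transfected N2a cells to a low-serum differentiation medium with retinoic acid before harvest, and neither source says whether the sequenced cells followed it. Cells of the si-NC group received a control siRNA and those of the si-circRtn4 group an siRNA against circRtn4, a circular RNA spliced from exons of Rtn4, with 3 libraries in each group. The comparison asks which genes differ after circRtn4 knockdown. All libraries come from the same line, and nothing says that they were separate cultures, so the p-values measure only the spread between these libraries, which may be technical.

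Recovered reads ranged from 13541198 to 15122063 per library. The table has no separate value for circRtn4, whose exons are also those of Rtn4, so it does not show the knockdown directly. The Rtn4 gene had 61.0, 66.8 and 69.8 FPKM in si-NC and 50.1, 56.7 and 62.7 FPKM in si-circRtn4 (log2 fold change -0.22, SE 0.10, limma adjusted p = 0.216). Whether reads of circRtn4 are counted in it is not known. Of the cell type markers, 11 of 12 for noradrenergic neuroblastoma reached 1 FPKM, and none of those for glia, fibroblasts, leukocytes or endothelium did. The summed level of the neuroblastoma markers was 2615 to 2884 FPKM in si-NC and 1142 to 1657 FPKM in si-circRtn4. Most of that difference lay in Chgb, a granule protein (1300 ± 149 against 364 ± 99.4 FPKM, SD, n = 3), and Chga (255 ± 21.6 against 85.2 ± 6.06 FPKM), while Hand2, Gata3, Isl1, Tubb3, Gap43 and Stmn2 overlapped between the groups. The part of this difference in the comparisons below was not tested. In bulk libraries, a smaller share of cells of some kind and less RNA per cell cannot be told apart.

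Most proteasome genes had nearly the same level in both groups. On the log2(FPKM + 1) scale, limma with Benjamini-Hochberg adjustment over 12749 genes called 1 of the 46 tested genes higher in si-circRtn4, Psmc6, and 0 lower, where 9.19% of all genes tested were called (4.36% higher and 4.82% lower). At an unadjusted p under 0.05, 5 were higher and 3 lower, against 13.1% and 12.8% of all genes. No label states a pairing of the libraries, and the replicate numbers were taken as pairs from correlations in these same data. The fit with the replicate number as a block called 4 higher (Psmc6, Psmd4, Psmg1 and Psmc2) and 2 lower (Psmb10 and Psme2b). Of all genes, that fit called 9.29% higher and 9.75% lower (19.0% together). Rescaled to TPM, which moves the balance of all calls upward, 3 were higher (Psmc6, Psmd4 and Psmd7) and 0 lower, against 7.62% and 3.08% of all genes (10.7% together). Under the paired and unpaired fits, the share called in each direction was near or below that of all genes. Groups did not overlap for 4 genes higher and 3 lower in si-circRtn4, where 16.2% and 15.5% of all genes did so.

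The direction of the small differences was uneven. The fitted log2 fold change was above 0 for 33 of the 46 genes (71.7%), against 50.4% of all genes tested. The 46 had higher levels (median 41.5 FPKM) than all genes tested (median 8.25 FPKM), and genes of like level were not compared. The median over the 46 was 0.079, against 0.0020 over all genes, and it fell to 3.43e-05 when si-NC replicate 1 was left out. Genes of the base, the core rings and the core chaperones were mostly above 0, and the other activators mostly below. The activators include Psme2 and Psme2b, which are nearly identical in coding sequence and are not separate observations.

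**Figure D1:**
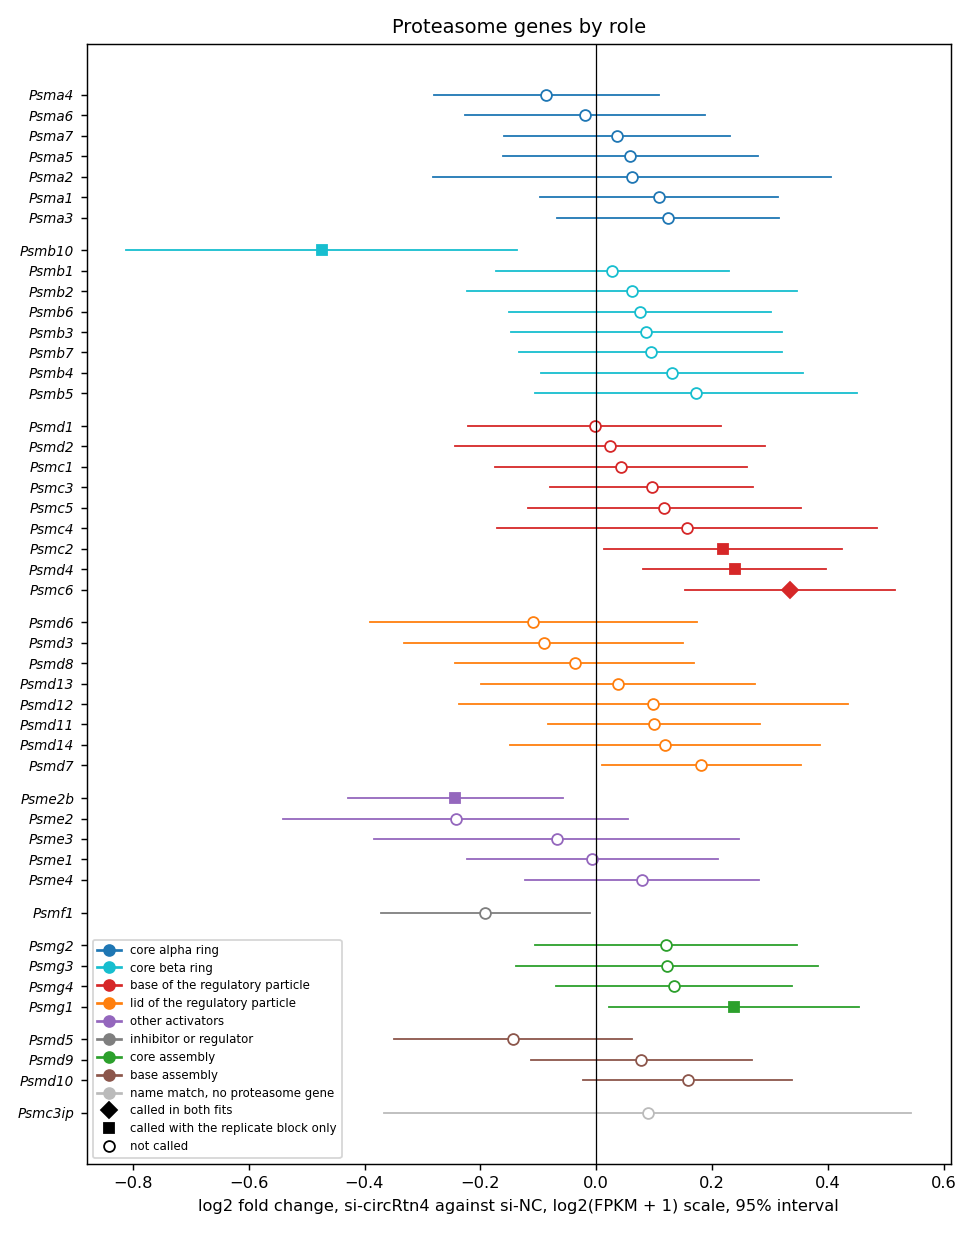
Log2 fold change of the 46 tested proteasome genes, si-circRtn4 against si-NC (x axis, log2(FPKM + 1) scale, limma, 3 libraries a group), grouped and coloured by role, with lines for the 95% interval. The diamond is Psmc6 (0.33), the squares are the 5 genes called only with the replicate block, and Psmb10 (-0.47) lies farthest to the left.

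In the base of the regulatory particle, 8 of 9 genes had a log2 fold change above 0 and the median was 0.12. The core beta ring was much the same, with 7 of 8 above 0 and only Psmb10 below. All 4 core chaperones were also above 0. All 6 ATPases, Psmc1 to Psmc6, were above 0, with a median of 0.14. Of the 6, 5 were higher in 3 of 3 pairs, where 14 of the 46 proteasome genes and 28.4% of all genes were. The ATPases are a part of the base and not one of the roles fixed beforehand. With 1 library left out, Psmc1 reached -0.037 and Psmc4 0.026 at the lowest, and the others stayed above 0. Proteasome genes varied together by library, as described below, so these 6 are not separate observations. Psmd1 and Psmd2, the large scaffolds of the base, were at -0.0027 and 0.024.

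Psmc6, an ATPase of the ring that unfolds substrates (ENSMUSG00000021832, chr14:45329788-45349705, plus strand), measured 31.6, 32.6 and 36.4 FPKM in si-NC and 41.0, 43.4 and 43.0 FPKM in si-circRtn4. Each si-circRtn4 library was above each si-NC library. The group means were 33.5 ± 2.54 and 42.5 ± 1.28 FPKM (SD, n = 3), the second being 127% of the first. The log2 fold change was 0.33 (SE 0.078, limma adjusted p = 0.0390, and 0.0106 to 0.138 over the alternatives), and the gene rested on 1644 to 2364 reads per library. The call was lost without any one of 5 libraries: adjusted p was 0.0854 and 0.138 when si-NC replicates 1 and 2 were left out in turn, and 0.0770, 0.117 and 0.102 when si-circRtn4 replicates 1, 2 and 3 were. By the two-sided exact permutation test, Psmc6 reached p = 0.1, the smallest that 3 against 3 libraries can give.

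Psmd4, the ubiquitin receptor of the base (chr3:95032694-95042614, minus strand), measured 46.2, 47.8 and 47.3 FPKM in si-NC and 53.9, 58.5 and 55.0 FPKM in si-circRtn4. The groups did not overlap, and the means were 47.1 ± 0.839 and 55.8 ± 2.39 FPKM (SD, n = 3). Its log2 fold change of 0.24 (SE 0.068) missed the threshold in the unpaired limma fit (adjusted p = 0.0698) and passed it with the replicate block (adjusted p = 0.0315), with 0.0212 to 0.190 over the alternatives. Psmc2, a further ATPase of the ring (chr5:21785283-21803787, plus strand), measured 31.0, 33.9 and 36.2 FPKM in si-NC and 36.2, 40.8 and 41.1 FPKM in si-circRtn4. Its groups met at 36.2 FPKM, while each pair was higher in si-circRtn4. The log2 fold change was 0.22 (SE 0.088, limma adjusted p = 0.169 unpaired and 0.0395 with the replicate block). Psmd4 and Psmc2 are described because the block called them, a choice made after their values were seen.

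**Figure D2:**
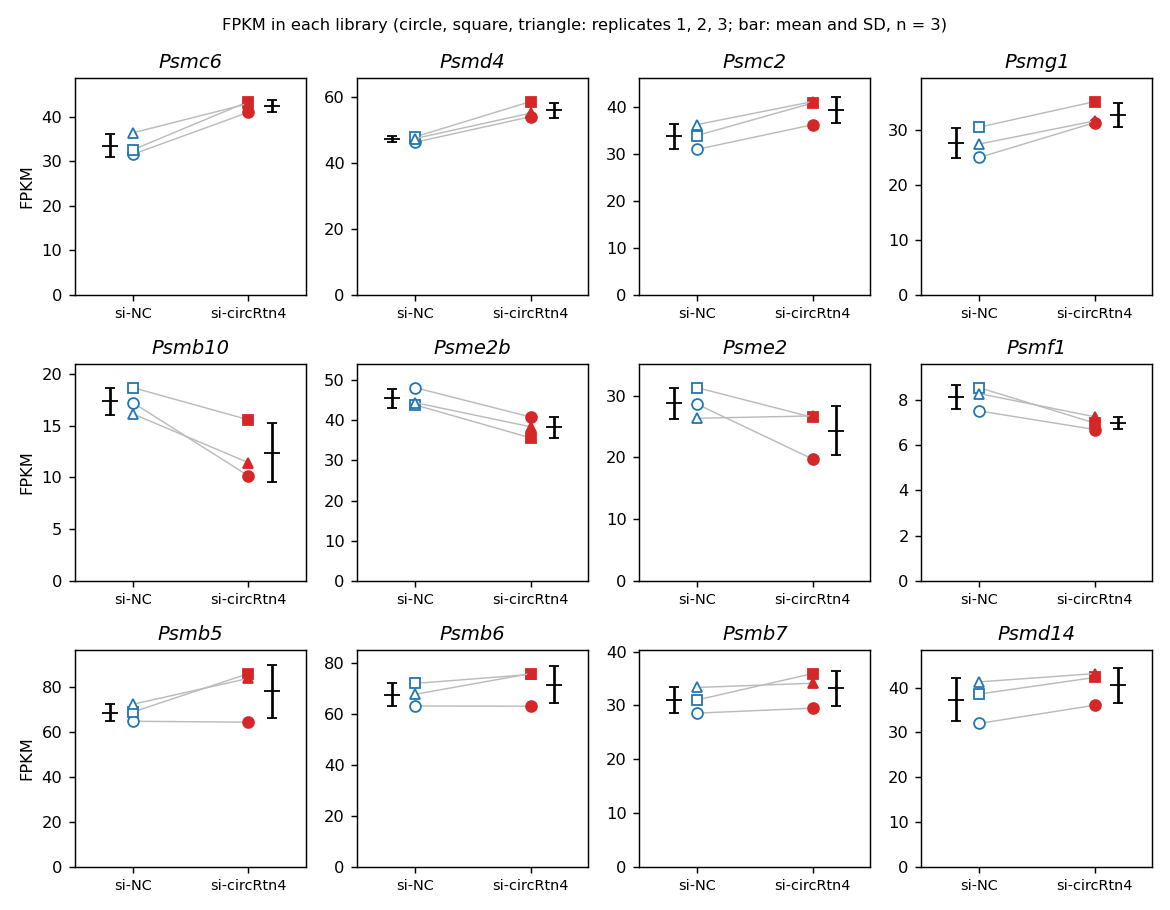
FPKM of 12 proteasome genes (y axes from 0) in the 3 si-NC libraries (open, blue) and the 3 si-circRtn4 libraries (filled, red), with circles, squares and triangles for replicates 1, 2 and 3, lines joining the same replicate number, and bars for the mean and SD (n = 3). Psmc6 rises from 31.6 to 36.4 FPKM in si-NC to 41.0 to 43.4 FPKM in si-circRtn4, while the groups of Psmb5, Psmb6, Psmb7 and Psmd14 overlap.

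The lid, which holds the deubiquitinase, had 5 of 8 genes above 0 and a median of 0.068. No gene of the lid was called in either fit. Psmd7, the structural partner of the deubiquitinase and the lid gene with the largest log2 fold change, measured 62.4, 66.3 and 66.0 FPKM in si-NC and 70.0, 78.3 and 73.2 FPKM in si-circRtn4. The groups did not overlap, but the log2 fold change of 0.18 (SE 0.074) did not pass the test (limma adjusted p = 0.173). The deubiquitinase itself, Psmd14, measured 32.0, 38.6 and 41.3 FPKM in si-NC and 36.1, 42.3 and 43.1 FPKM in si-circRtn4. Its groups overlapped, and the log2 fold change was 0.12 with a 95% interval of -0.15 to 0.39 (limma adjusted p = 0.568). Psmd6 was the lowest of the lid at -0.11.

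In the core, none of the 14 constitutive subunits was called in either fit. Their median log2 fold change was 0.069, and 12 of the 14 were above 0. In the alpha ring, which gates the entrance, values ran from -0.086 for Psma4 to 0.12 for Psma3. Psma3 measured 24.1, 26.9 and 28.3 FPKM in si-NC and 27.4, 29.5 and 29.7 FPKM in si-circRtn4, with overlapping groups and a limma adjusted p of 0.400. Psma6 had the highest mean FPKM of the proteasome genes on the listed gene length. It measured 139.6, 153.4 and 155.0 FPKM in si-NC and 133.6, 155.7 and 153.2 FPKM in si-circRtn4. Its log2 fold change was -0.020 with a 95% interval of -0.23 to 0.19 (limma adjusted p = 0.921). As TPM it was 0.073, where the median of all genes was 0.090.

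The 3 constitutive catalytic subunits overlapped between the groups. Psmb5, the chymotrypsin-like site, measured 64.8, 68.9 and 72.3 FPKM in si-NC and 64.3, 86.0 and 83.9 FPKM in si-circRtn4. The library of si-circRtn4 replicate 1 was level with the controls while the others stood above them, and the log2 fold change was 0.17 (95% interval -0.11 to 0.45, limma adjusted p = 0.419). Psmb6, the caspase-like site, measured 63.1, 71.9 and 67.7 FPKM in si-NC and 63.0, 75.5 and 75.8 FPKM in si-circRtn4, with a log2 fold change of 0.076 (95% interval -0.15 to 0.30, limma adjusted p = 0.681). Psmb7, the trypsin-like site, measured 28.6, 31.0 and 33.3 FPKM in si-NC and 29.5, 35.9 and 34.1 FPKM in si-circRtn4. The difference was again within the spread, with a log2 fold change of 0.094 (95% interval -0.13 to 0.32, limma adjusted p = 0.599).

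Psmb10, the interferon-inducible subunit that takes the place of Psmb7, went the other way (ENSMUSG00000031897, chr8:105935735-105938444, minus strand). It measured 17.2, 18.7 and 16.1 FPKM in si-NC and 10.1, 15.6 and 11.4 FPKM in si-circRtn4. Each si-circRtn4 library lay below each si-NC library, narrowly so for replicate 2. The means were 17.3 ± 1.27 and 12.4 ± 2.83 FPKM (SD, n = 3), 71.4% of the control. The log2 fold change was -0.47 (SE 0.15), with a limma adjusted p of 0.0859 in the unpaired fit, 0.0261 with the replicate block and up to 0.229 in other alternatives. Leaving out si-circRtn4 replicate 2 gave a log2 fold change of -0.64 (adjusted p = 0.0283), and leaving out any other library gave -0.52 to -0.35 (adjusted p 0.133 to 0.229). Per 100 FPKM of Psmb7, the Psmb10 level was 60.3, 60.2 and 48.4 in si-NC and 34.4, 43.3 and 33.5 in si-circRtn4, and these ratios did not overlap either (FPKM on the listed gene lengths).

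Among the other activators, which open the core without ATP, the median log2 fold change was -0.068 and 4 of 5 were below 0. Those 4 include Psme2 and Psme2b, whose reads cannot be held apart, and Psme1, which was close to 0. Psme1 and Psme2 form the interferon-inducible activator. Psme1 measured 41.8, 43.5 and 45.5 FPKM in si-NC and 38.6, 44.2 and 48.0 FPKM in si-circRtn4, with a log2 fold change of -0.0065. Psme2 measured 28.6, 31.3 and 26.3 FPKM in si-NC and 19.7, 26.5 and 26.7 FPKM in si-circRtn4. Its groups overlapped, and the log2 fold change was -0.24 (SE 0.13, limma adjusted p = 0.284). Psme2b (chr11:48945354-48946190, minus strand) measured 48.1, 43.8 and 44.4 FPKM in si-NC and 40.8, 35.6 and 38.4 FPKM in si-circRtn4, so its groups did not overlap. Its log2 fold change was also -0.24 (SE 0.080, limma adjusted p = 0.104 unpaired and 0.0309 with the replicate block). Psme3, the nuclear relative of this activator, was at -0.068, and Psme4, a large nuclear activator, at 0.079.

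The values of Psme2 and Psme2b cannot be held apart. Their coding sequences were identical at 715 of 720 bases (99.3%), and the longest run that the transcripts share was 341 bases, so that the counting could have split reads between them either way. The site at coding position 369, counted from the A of the start codon, is shown with the differing base in capitals (A369G, transcripts of GENCODE M21):
Psme2: tctggtaatcacAtggatccagcac
Psme2b: tctggtaatcacGtggatccagcac
The other paired forms were much less alike, with 74.8% identity for Psma7 and Psma8, 65.2% for Psmb5 and Psmb11 and 64.8% for Psmb7 and Psmb10, and shared no run longer than 17 bases. The table also lists 6 pseudogenes named for these genes, of which 2 were above 0 in any library, at no more than 0.296 FPKM. Of the 48 genes, 7 overlap a further gene at 1 FPKM or more: Psma2, Psma3, Psmc3, Psmc3ip, Psmc5, Psmd13 and Psme1. No source used here gives the strand of the counting, so reads of such neighbours could be shared.

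Psmf1, an inhibitor and regulator of the core, measured 7.499, 8.53 and 8.26 FPKM in si-NC and 6.68, 6.96 and 7.24 FPKM in si-circRtn4. The groups did not overlap, and the log2 fold change was -0.19 (SE 0.078, limma adjusted p = 0.172).

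The 4 chaperones of the core, Psmg1 to Psmg4, were all above 0, with a median of 0.13 and no call in the unpaired fit. Psmg1, which pairs with Psmg2 on the alpha ring (chr16:95979933-95990960, minus strand), measured 24.9, 30.4 and 27.4 FPKM in si-NC and 31.3, 35.1 and 31.6 FPKM in si-circRtn4. The groups did not overlap. The log2 fold change was 0.24 (SE 0.093, limma adjusted p = 0.159 unpaired and 0.0377 with the replicate block). Of the 3 chaperones of the base, Psmd10 measured 19.1, 17.9 and 20.1 FPKM in si-NC and 21.6, 22.4 and 20.04 FPKM in si-circRtn4. Its groups overlapped (log2 fold change 0.16, limma adjusted p = 0.250). Psmd5 was at -0.14. Psmd9 had the lowest mean FPKM of the tested proteasome genes on the listed gene length. It measured 5.14, 5.71 and 5.46 FPKM in si-NC and 5.36, 5.88 and 6.16 FPKM in si-circRtn4 (log2 fold change 0.078). Psmc3ip, the name match, was at 0.089.

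The proteasome genes also varied with the replicate number. Within si-NC, 40 of the 46 genes (87.0%) were lowest in replicate 1, against 40.4% of all genes tested. Within si-circRtn4, 40 of the 46 were again lowest in replicate 1, against 37.0% of all genes. In 36 of the 46 (78.3%), replicate 1 was lowest in both groups, against 22.9% of all genes. The median deviation of the 46 genes from their own mean over the 6 libraries was -0.15, 0.010 and 0.057 on the log2 scale in si-NC and -0.10, 0.13 and 0.063 in si-circRtn4. For all genes tested, the same medians stayed between -0.011 and 0.0083. The low values of replicate 1 were thus shared by most proteasome genes, in both groups, and not by the median gene. That gene has a lower level (8.25 FPKM, against 41.5 FPKM for the 46). Whether other genes of high level share the low values was not tested.

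**Figure D3:**
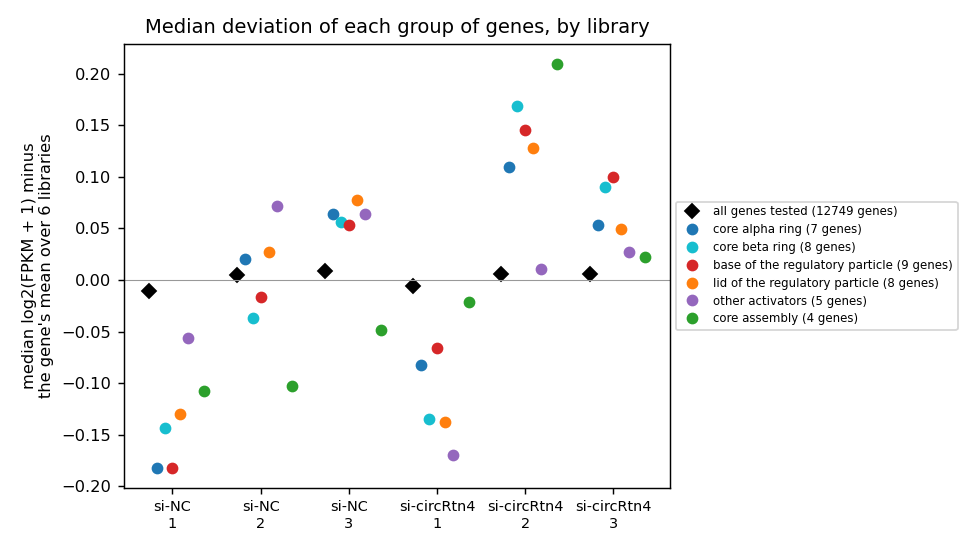
Median deviation of each group of genes from the gene's own mean over 6 libraries (y axis, log2(FPKM + 1)), by library (x axis). The black diamonds, all 12749 genes tested, stay between -0.011 and 0.0083, while the coloured points of the proteasome roles are below 0 in replicate 1 of both groups.

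Within the pairs, the median difference of the 46 genes was 0.057 in pair 1, 0.11 in pair 2 and 0.019 in pair 3 (log2, si-circRtn4 minus si-NC). The genes higher in si-circRtn4 numbered 29, 36 and 25 of the 46 (63.0%, 78.3% and 54.3%), against 50.7%, 50.4% and 49.1% of all genes. In 3 of 3 pairs, 14 genes were higher and 4 lower, against 28.4% and 28.3% of all genes.

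Subunits of the core are present in equal number in each particle, but the levels of their mRNAs were unequal. On the listed gene length, the 14 constitutive core genes ranged from 25.2 to 148 FPKM in the mean over all libraries, a 5.90-fold range. The listed length spans all annotated exons and was 1.0 to 3.36 times as long as the principal transcript. Per kilobase of the principal transcript, with the same scaling by depth, the same genes ranged from 32.3 for Psma2 to 216 for Psmb3, a 6.69-fold range, with a median of 103. The ATPases ranged from 60.6 for Psmc6 to 132 for Psmc5 on this scale, a narrower 2.18-fold range. Psmc6, the gene called higher, was thus the ATPase with the lowest level per transcript length. The chaperones of the base had 13.4 to 21.1 and those of the core 22.2 to 54.4 on the same scale, below the median of the core subunits. Psmb10 was at 19.7 and its constitutive counterpart Psmb7 at 96.3. This second scale was added after the table was seen.

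**Figure D4:**
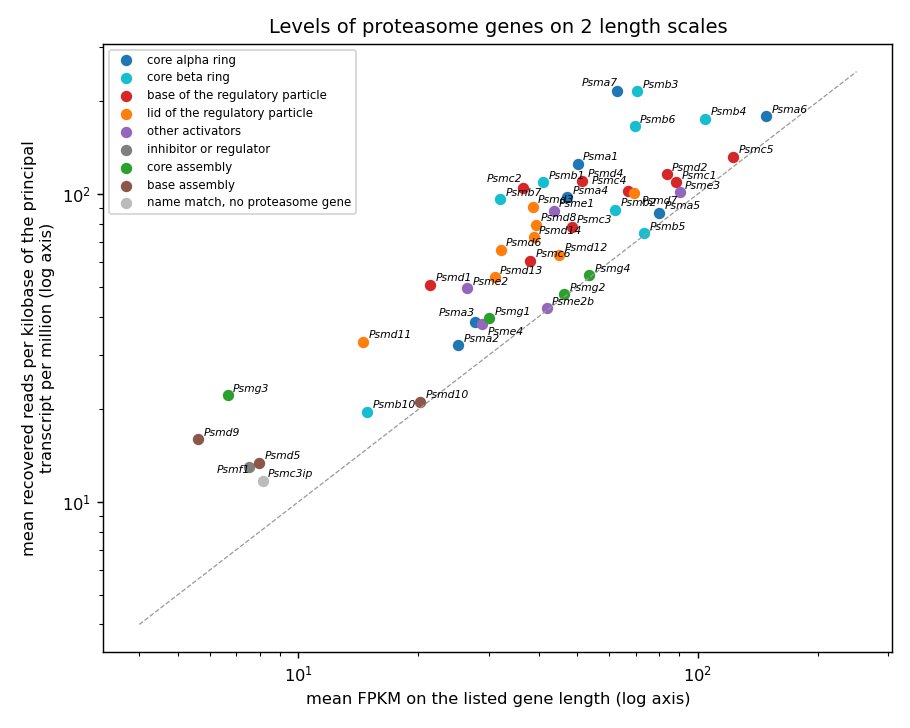
Mean level of each tested proteasome gene over 6 libraries, as FPKM on the listed gene length (x axis, log) and as recovered reads per kilobase of the principal transcript with the same scaling by depth (y axis, log), coloured by role. The dashed line marks equal values, and genes far above it, such as Psma7, Psmb3 and Psmg3, have a listed length about 3 times that of the principal transcript.

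The promoters were searched for letters of 3 known binding motifs, on either strand, in the sequences around the start site from RefSeq (GRCm38.p6), which matched 40 of the 48 genes by symbol. Psma8, Psmb1, Psmb2, Psmb7, Psmc3, Psmd3, Psmd7 and Psmg2 had no entry. The core letters of the antioxidant response element, TGACNNNGC, bound by Nfe2l1 and Nfe2l2, occurred in 6 of 40 (15%), against 17.1% of the tested genes that had a promoter. The core letters of the interferon-stimulated response element, GAAANNGAA, occurred in 7 of 40 (17.5%), against 7.94%. The box of NF-Y, CCAAT, occurred in 14 of 40 (35.0%), against 43.7%. The letters of different motifs were allowed to overlap. A gene could have several promoter entries and was counted if any of them held the letters. The window of Psmc2 below lies inside the gene as listed, by a further start site. The windows shown are those of the gene that was called, Psmc6, of the 2 catalytic subunits with the first motif, and of the genes of the base and the inducible activator with the second, each 5′ to 3′ along the gene with the matching letters in capitals:
Psmc6, TGACNNNGC on the opposite strand, chr14:45329587-45329616: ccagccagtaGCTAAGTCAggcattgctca
Psmb5, TGACNNNGC on the same strand, chr14:54618023-54618052: cgtgaagttgTGACGTCGCggcgttgccag
Psmb6, TGACNNNGC on the same strand, chr11:70525338-70525367: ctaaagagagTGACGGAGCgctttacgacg
Psmd4, GAAANNGAA on the opposite strand, chr3:95042674-95042703: taaccaacctTTCCATTTCtgtggcgccta
Psmc2, GAAANNGAA on the same strand, chr5:21786729-21786758: gtggggaagaGAAAGGGAAgacaccagcgg
Psme1, GAAANNGAA on the opposite strand, chr14:55578494-55578523: gagctgtgctTTCGCTTTCccttcccgctg
The promoter entry of Psmb10 held none of the 3 motifs. The median log2 fold change was 0.089 for the 6 genes with TGACNNNGC and 0.059 for the 33 tested genes without it, and 0.13 for the 7 genes with GAAANNGAA and 0.060 for the 32 without. A match is a description of letters and shows no binding.

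The siRNA and the microRNA that circRtn4 is studied with were also matched to the longest annotated 3′ UTR of the 46 tested genes (GENCODE M21). For the siRNA, the strand complementary to the listed one served as the guide. Both are shown 5′ to 3′ with the seed, bases 2 to 8, in capitals:
si-circRtn4 guide: aAAAGGGTctcatctgaag
mmu-miR-24-3p: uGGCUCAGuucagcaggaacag
The site for the guide seed, ACCCTTT, occurred in 0 of the 46, against 12.5% of 10688 tested genes with a 3′ UTR. The site for the seed of miR-24-3p, CTGAGCC, occurred in 5 of the 46 (10.9%), against 19.6% of these genes: Psma2, Psma3, Psmc3, Psmd5 and Psme3. Their log2 fold changes were 0.062, 0.12, 0.096, -0.14 and -0.068, and none was called. A longer 3′ UTR has more room for a site. Those of the 46 ran from 44 bases (Psme2) to 2842 bases (Psmd5), and genes of like length were not compared.

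Genes that work with the proteasome were followed in a list of 39, of which all were tested, 2 were called higher and 1 lower (median log2 fold change 0.016), where 4.36% and 4.82% of all genes tested were. Akirin2, which brings assembled proteasomes into the nucleus, fell, with 58.0, 56.8 and 58.9 FPKM in si-NC and 43.9, 47.6 and 49.0 FPKM in si-circRtn4. Its log2 fold change was -0.30 (SE 0.071, limma adjusted p = 0.0413). The call was lost without any one library (limma adjusted p 0.0683 to 0.122), as TPM (0.0957) and with no filter. Maff, a small Maf protein that pairs with Nfe2l1 and Nfe2l2 on DNA, rose from 6.998, 8.21 and 13.03 FPKM in si-NC to 15.4, 17.3 and 18.6 FPKM in si-circRtn4. The log2 fold change was 0.84 (SE 0.20, limma adjusted p = 0.0393), and without any one library other than si-NC replicate 3 the adjusted p was 0.0795 to 0.123. Over all alternatives, the limma adjusted p of Maff was at most 0.136. Stat3, a transcription factor reported to act on beta subunit genes, rose from 8.94, 7.83 and 8.81 FPKM in si-NC to 13.7, 12.1 and 11.9 FPKM in si-circRtn4. Its log2 fold change was 0.51 (SE 0.086, limma adjusted p = 0.0142, and 0.0595 without si-NC replicate 2).

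Nfe2l1 measured 82.7, 61.7 and 75.6 FPKM in si-NC and 90.0, 76.9 and 83.6 FPKM in si-circRtn4. Each pair was higher in si-circRtn4, the groups overlapped, and the log2 fold change was 0.19 (SE 0.12, limma adjusted p = 0.362). With the replicate block, 5 genes of the list were higher and 1 lower, where 9.29% and 9.75% of all genes were, the additional calls including Nfe2l2 (log2 fold change 0.33, adjusted p = 0.0235 against 0.0598 unpaired) and Zfand2a, a proteasome-bound stress protein (0.57, 0.0226 against 0.0705). Maff and Stat3 were also higher in that fit (adjusted p = 0.0111 and 0.0082). Pomp, the maturation factor of the core, was at -0.13, and Sem1, a small lid subunit, at 0.19, neither called.

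The list of interferon and antigen processing genes, which share regulators with Psmb10, Psme1 and Psme2, held 16 genes. Of these, 11 were tested, and 1 was called higher and 4 lower, where 4.36% and 4.82% of all genes tested were. The log2 fold change was below 0 for 10 of the 11 (median -0.22), where 50.4% of all genes were above 0. Tapbp, which helps to load peptides onto MHC class I, fell from 42.2, 35.2 and 33.8 FPKM in si-NC to 18.6, 17.3 and 14.6 FPKM in si-circRtn4 (log2 fold change -1.10, SE 0.12, limma adjusted p = 0.00313). Psmb8, the inducible counterpart of Psmb5, fell from 13.7, 13.3 and 12.8 FPKM to 9.56, 9.39 and 9.13 FPKM. Its log2 fold change of -0.46 (SE 0.067, limma adjusted p = 0.00929) was close to the -0.47 of Psmb10 with a smaller error. The calls of Tapbp and Psmb8 held in all 14 alternatives.

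Irf1, a transcription factor of the inducible subunits, fell from 11.0, 8.04 and 7.89 FPKM in si-NC to 6.33, 5.69 and 4.86 FPKM in si-circRtn4 (log2 fold change -0.58, SE 0.14, limma adjusted p = 0.0416). The limma adjusted p was 0.0607 to 0.111 without any one library, 0.0616 as TPM and at most 0.134 over all alternatives. Erap1, which trims peptides in the endoplasmic reticulum, fell from 6.61, 7.23 and 6.96 FPKM to 5.27, 4.71 and 4.34 FPKM (log2 fold change -0.46, SE 0.087, limma adjusted p = 0.0203). Its call was lost without si-NC replicates 2 or 3 (0.0833 and 0.0634), without si-circRtn4 replicates 2 or 3 (0.0704 and 0.0585), and with no filter. B2m, the light chain of MHC class I, was at -0.35 (limma adjusted p = 0.127 unpaired and 0.0190 with the replicate block). Its groups narrowly did not overlap, with at most 147.7 FPKM in si-circRtn4 and at least 148.2 FPKM in si-NC. Psmb9, the inducible counterpart of Psmb6, measured 2.05, 1.54 and 1.52 FPKM in si-NC and 1.825, 1.04 and 1.297 FPKM in si-circRtn4, with overlapping groups (log2 fold change -0.19, limma adjusted p = 0.522). Of the 3 inducible catalytic subunits, Psmb8 therefore passed the test in both fits, Psmb10 with the block, and Psmb9 in neither.

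Isg15, a ubiquitin-like protein induced by interferon, was the only tested gene of the list with a log2 fold change above 0, from 6.05, 5.596 and 5.29 FPKM in si-NC to 28.4, 37.4 and 10.7 FPKM in si-circRtn4. Its si-circRtn4 libraries differed widely, and the log2 fold change was 1.83 (SE 0.38, limma adjusted p = 0.0282). The call was lost without any one library other than si-circRtn4 replicate 3 (0.0622 to 0.0907). Over all alternatives, the limma adjusted p of Isg15 was at most 0.112. Nlrc5, Irf7, Ifit1 and Ifit3 were among the genes of the list whose means were below 1 FPKM, and they were not tested. Of these, Ifit1, a further interferon-induced gene, was also higher in each si-circRtn4 library, with 0.374, 0.366 and 0.592 FPKM in si-NC and 1.91, 2.06 and 0.622 FPKM in si-circRtn4. Nlrc5, a regulator of MHC class I genes, was higher in 3 of 3 pairs at 0.0312 to 0.348 FPKM.

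**Figure D5:**
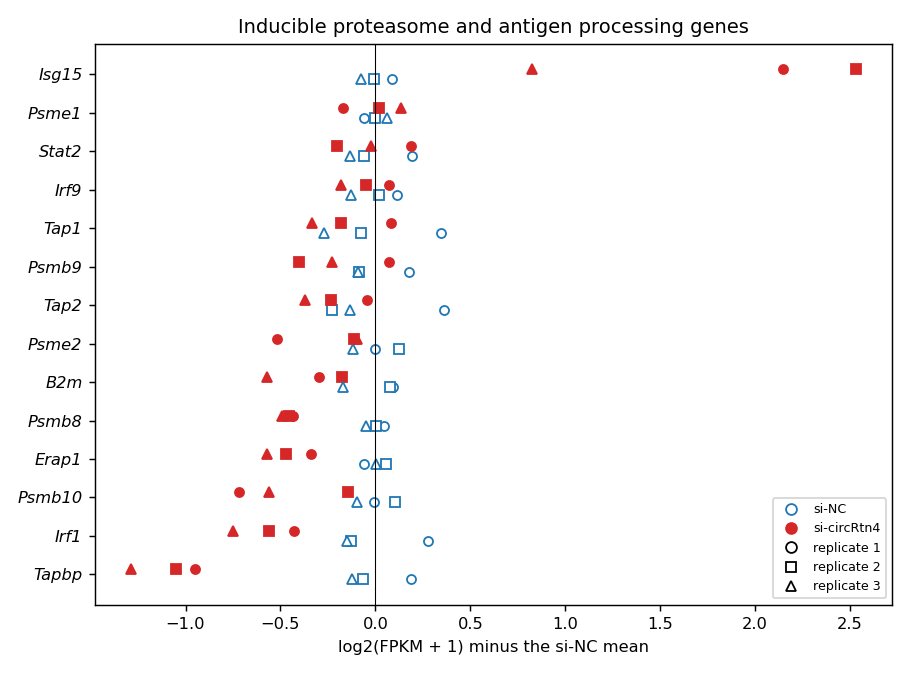
Log2(FPKM + 1) minus the mean of si-NC (x axis) for the 11 tested interferon and antigen processing genes and for Psmb10, Psme1 and Psme2, in the 3 si-NC libraries (open, blue) and the 3 si-circRtn4 libraries (filled, red). Tapbp, Irf1, Psmb10, Erap1, Psmb8 and, narrowly, B2m have all si-circRtn4 points to the left of the si-NC points, and Isg15 has them to the right.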

How the data were processed

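RNA of 6 libraries of N2a cells was compared, 3 of si-NC and 3 of si-circRtn4, grouped by the sample titles. The values deposited by the authors are FPKM, 1 per gene and library, with replicates not pooled. The submitters' processing notes name Bowtie 0.12.2 and the builds mm8 and mm9, with no role given. The counting tool and annotation are not given in the sources used here. The coordinates in the table are those of GRCm38: 98.1% of the listed genes, and 47 of the 48 proteasome genes, have the same start and end in GENCODE M21. A further 6 sample columns carry names that match no sample analysed here and were not used.

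FPKM times gene length gave whole multiples of 1 read for 100% of values above 0 (tolerance 0.01), and the recovered reads gave the depth. The test was that of limma 3.58.1 (R 4.3.3, mean-variance trend) on log2(FPKM + 1). It ran over 12749 genes whose mean reached 1 FPKM, with Benjamini-Hochberg adjustment and calls at an adjusted p under 0.05. Fold changes on this scale understate those of low genes. Intervals are 95% intervals of the fit. For single genes, an exact permutation test over the libraries was added. The fit was also run on simulated data, with larger changes than any tested proteasome gene showed and no effect of the replicate number. That run does not show how the fit performs on differences as small as those described here.

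The deviations of same-numbered libraries from their group means correlated at 0.33, 0.19 and 0.23 over the genes tested, and those of other numbers at no more than 0.0091, so the numbers were taken as pairs, and the fit with the replicate number as a block is given where it changes a call. The stated methods name no pairing, so the fit without it came first. The alternatives were pseudocount 0.1, no filter, a mean of at least 5 FPKM, TPM with and without the short gene Gm23935, quantile normalization, limma-voom on the recovered reads, the block, and leaving out each library.

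Proteasome genes, lists and roles were chosen with earlier results of these data known. Values in every library are given for called genes, the catalytic subunits and Psmb10, Psmd14, the largest log2 fold change in each role, the highest and lowest level, called genes of the lists, and Nfe2l1; others so described were chosen after their values were seen. Paaf1 of the pathway list was not analysed here, and some genes of the lists are not reported here. Sequences were read from RefSeq and GENCODE M21 with biopython 1.88, and the siRNA from the study's sequence list.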

Additional observations from a re-analysis of the deposited data

How the results depend on the processing

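Psmc6 stayed above 0 in all 14 alternatives. The number of proteasome genes called higher was 1 in the fit reported, 0 with no filter, 3 as TPM, 2 with quantile normalization, 2 with limma-voom on recovered reads, 4 with the replicate block and 0 to 1 when 1 library was left out. The number called lower was 0, then 2 with the replicate block and 0 to 1 when 1 library was left out. Their median log2 fold change ranged from 3.43e-05 to 0.13 when 1 library was left out and was 0.17 as TPM, where the median of all genes was 0.090. Over all genes, 1171 were called, 471 with no filter, 2428 with the replicate block and 380 to 826 when 1 library was left out. As TPM, 972 were higher and 393 lower, against 556 and 615. The interferon list had 5 calls, 2 with no filter and 2 to 3 when 1 library was left out. The pathway list had 3 calls, 1 with no filter, 5 at a mean of at least 5 FPKM, 5 with limma-voom, 6 with the replicate block and 0 to 2 when 1 library was left out. Psma6 was above 0 as TPM (0.073), as TPM without Gm23935 (0.0022) and with limma-voom (0.0032), and in each it was below the median of all genes (0.090, 0.023 and 0.025), as in the fit reported. Over the libraries left out it ranged from -0.067 to 0.049. Psmc3ip likewise ranged from -0.10 to 0.23. For the other called, catalytic and paired-fit genes recomputed in the same way, no alternative changed the sign. Where 1 library is left out, its group rests on fewer samples. The exact permutation test of 3 against 3 libraries cannot go below 0.1 for a difference of any size.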
